A study of Mus musculus with 2 samples.

Results

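A set of 10 genes of the S100 and annexin families was followed in mouse liver with and without Iah1, which encodes the mouse counterpart of an esterase first known from yeast, where it splits isoamyl acetate. They were S100a1, S100a4, S100a6, S100a8, S100a9, S100a10, S100a11, S100a13, Anxa2 and Anxa5, chosen by symbol with earlier results of these data known, and they make up 10 of the 22180 genes that the platform annotation pairs with a probe set of 1 symbol. Each of the 10 had a single probe set. Liver RNA came from male Iah1-WT mice and male Iah1-KO mice, in which the gene is missing from the whole body. All animals ate standard chow until 6 weeks of age, then received a high-fat diet over 12 weeks, and food was withdrawn 4 hours before tissue collection. RNA of 3 mice per genotype was pooled on 1 Affymetrix array, so there are 2 arrays, no replicate and no p-value, and the pool hides the spread between mice. The genetic background and the construction of the deletion are not given in the sources used here.

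S100 proteins are small dimers in which each chain carries a pair of EF-hand loops, and calcium binding opens a surface that docks onto target proteins. Annexins bind acidic phospholipids of membranes in the presence of calcium, and several of them are held by an S100 dimer through their N-terminal tail. S100A10, which has lost calcium binding, pairs with annexin A2, S100A11 pairs with annexin A1, and S100A8 with S100A9 forms calprotectin, an abundant protein of neutrophils. Most S100 genes lie together on mouse chromosome 3.

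Values are RMA signals on the log2 scale, in which 1 unit is a factor of 2, and differences are KO minus WT. RMA compresses the differences of dim probe sets, so folds can understate a change in RNA. A gene was compared where the brighter array reached 4.68, the median over all genes of the brighter value, and 11090 genes did. This intensity filter is not a detection limit. A difference was counted at 1.5-fold or more, 0.58 on the log2 scale. Where several probe sets measured a gene, their differences scattered with a standard deviation (SD) of 0.27 around that gene's mean (604 genes), which covers measurement by different probes and leaves out mice, labelling and hybridisation. Over 41345 probe sets the arrays had like distributions, with a WT median of 4.08 and a KO median of 4.10, and the median difference of the compared genes was -0.02. Iah1 itself was at 8.59 in WT and 3.90 in KO, at least 15.1-fold lower when the filter takes the place of the KO value. The tissue label fitted its markers, since all 12 hepatocyte markers passed the filter, with a mean signal of 11.91 in the WT array and 11.86 in the KO array.

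S100a11 stood out among the 10 genes. Of them, 6 passed the filter, 1 was lower by 1.5-fold or more and 0 were higher, against 2.45% of all compared genes lower and 1.47% higher. Because the genes were chosen with these values known, nothing is read from that count. The median difference was 0.12 over the 10 genes, also 0.12 over the 6 that passed, and -0.02 over all compared genes.

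**Figure D1:**
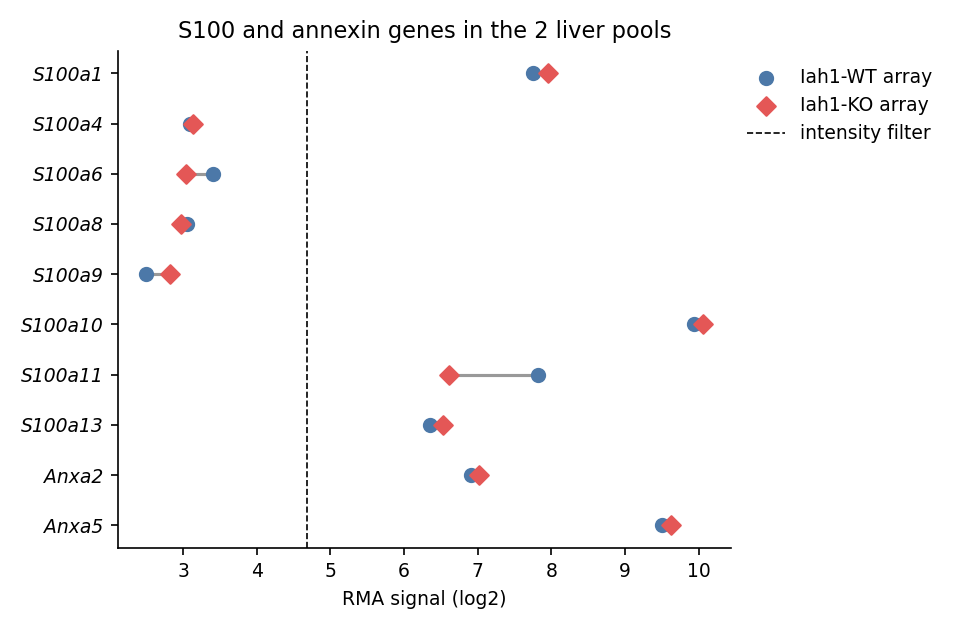
RMA signal (log2, horizontal axis) of the 10 genes in the Iah1-WT array (circles) and the Iah1-KO array (diamonds), 1 pool of 3 mice each. Grey lines join the arrays and the dashed line is the intensity filter of 4.68. S100a11 moves from 7.81 to 6.61, while the other genes to the right of the line shift by 0.20 or less to the right.

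S100a11 (Entrez 20195), on chromosome 3, encodes a dimeric partner of annexin A1 that takes part in membrane repair and in the growth control of epithelial cells. Its signal was 7.81 in the WT array and 6.61 in the KO array. The difference of -1.20, or 2.30-fold lower in KO, was several times the SD between probe sets, and both values lay well above the filter. Ranked from the most negative difference, S100a11 was number 17 of 11090. Within 0.5 log2 units of its mean signal lay 2224 genes, itself included, whose differences had an SD of 0.19. In that set 21 genes were lower by 1.5-fold or more, and S100a11 was the 1 gene with a difference of -1.20 or below. Such sets were drawn only for S100a11 and, below, Anxa3, both past 1.5-fold. Their ranks and places therefore describe these genes and lend no further support.

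Another probe set carries the name of an S100a11 copy. S100a11-ps, annotated as a pseudogene of S100a11 on chromosome 12, was looked at after its values had been seen. Iah1 is on the same chromosome, and the distance between them was not examined. It was at 4.55 in WT, below the filter, and at 5.35 in KO, a difference of 0.80 and at least 1.59-fold higher. The gene and its pseudogene thus differed in opposite directions between the same arrays. The pseudogene value rests on 1 dim probe set. With a probe set added that names Hif1a as well, S100a11-ps was at 0.48, short of 1.5-fold. Copies of a gene can share probe binding, and whether either probe set also reads the other transcript was not tested, so the size of the S100a11 difference carries that uncertainty.

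**Figure D2:**
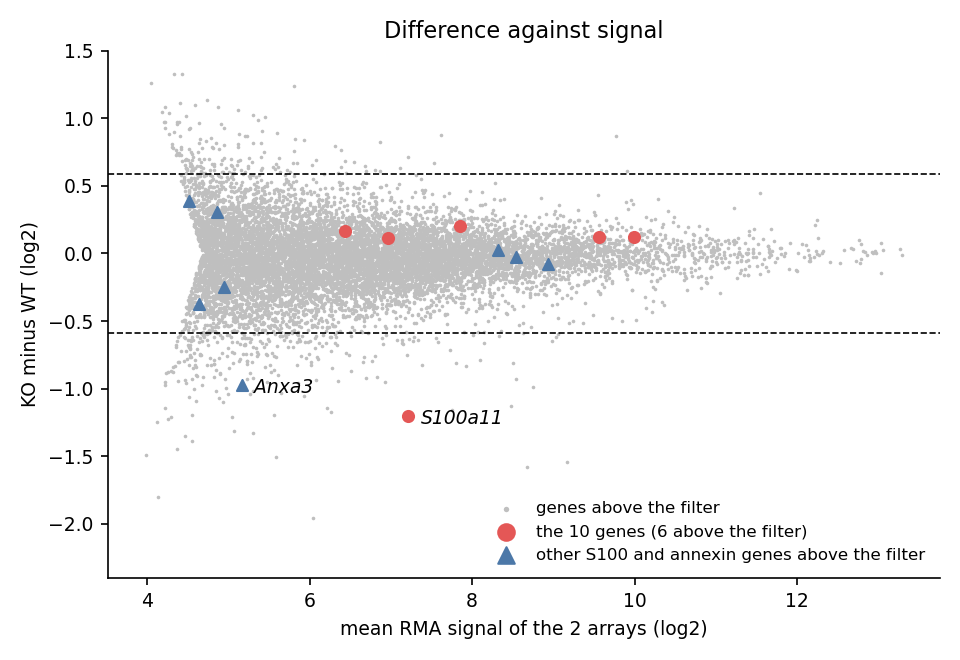
KO minus WT difference (log2, vertical axis) against the mean signal of the 2 arrays (log2, horizontal axis) for the 11090 genes above the filter (grey points). Iah1, at -4.69, lies outside the plotted range, and dashed lines mark 1.5-fold. S100a11 at -1.20 lies apart from genes of like signal, the other 5 compared genes of the 10 (filled circles) lie at 0.12 to 0.20, and Anxa3 at -0.97 is the farthest of the other family genes (triangles).

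The stretch before the start of S100a11 is shown beside that of Anxa2, a family gene that did not share its difference. Both are the 250 bases upstream of the RefSeq start in GRCm38.p6, on the plus strand, at chr3:93520246-93520495 for S100a11 and chr9:69453433-69453682 for Anxa2. RefSeq windows were at hand for 9 of the 10 genes. Capitals mark exact matches, on either strand, to the AP-1 motif TGANTCA, the GC box GGGCGG and the TATA box TATAAA, none of which overlap here.
S100a11: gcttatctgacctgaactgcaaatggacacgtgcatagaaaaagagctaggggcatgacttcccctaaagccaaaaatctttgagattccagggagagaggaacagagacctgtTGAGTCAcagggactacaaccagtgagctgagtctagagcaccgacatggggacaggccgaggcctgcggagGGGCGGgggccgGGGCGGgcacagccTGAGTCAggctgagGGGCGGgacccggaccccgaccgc
Anxa2: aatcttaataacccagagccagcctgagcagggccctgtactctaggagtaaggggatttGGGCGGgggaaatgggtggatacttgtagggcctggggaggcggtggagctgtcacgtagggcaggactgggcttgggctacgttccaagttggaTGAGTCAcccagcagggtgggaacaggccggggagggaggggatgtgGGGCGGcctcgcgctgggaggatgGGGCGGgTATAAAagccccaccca

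S100a11 held 2 AP-1 matches, starting 136 and 38 bases before the start, and 3 GC boxes, at 64, 52 and 24 bases. Anxa2 held 1 AP-1 match at 95 bases, 3 GC boxes at 190, 48 and 24 bases, and a TATA box at 17 bases. An AP-1 match was present in 6.75% of 32851 such windows, a GC box in 32.7% and a TATA box in 12.4%. Among the 9 windows, those of S100a11 and Anxa2 were the 2 with an AP-1 match. These matches describe the letters only. S100a11 was at -1.20 and Anxa2 at 0.12, which is less than the SD between probe sets. Whether the motifs have a part in either value was not tested.

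The S100A10 and annexin A2 pair showed no such difference. S100a10, which encodes the subunit that carries annexin A2 to the plasma membrane and serves there as a receptor for plasminogen, was at 9.93 in the WT and 10.05 in the KO array. The difference was 0.12, or 1.09-fold. Anxa2, its partner, was at 6.90 in the WT and 7.02 in the KO array, again a difference of 0.12 (1.08-fold). Anxa5, which binds phosphatidylserine and is used as a stain for dying cells, was at 9.50 in the WT and 9.62 in the KO array, a difference of 0.12 (1.09-fold). Each of these was smaller than the SD between probe sets, and between 44.4% and 45.5% of the compared genes had a smaller difference in either direction.

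S100a1 and S100a13 were likewise near their WT values. S100a1, known for its action on calcium handling in muscle, was at 7.75 in the WT and 7.95 in the KO array, a difference of 0.20 (1.15-fold). S100a13, which takes part in the release of FGF1 from cells, was at 6.36 in the WT and 6.53 in the KO array, a difference of 0.17 (1.12-fold). Both lay a little higher in the KO array, by less than the SD between probe sets. Their RefSeq starts face away from each other on opposite strands. The 104 bases between the starts, at chr3:90514331-90514434 in GRCm38.p6, are shown on the plus strand, in the direction of S100a13, because the pair shares them as its upstream sequence.
S100a13: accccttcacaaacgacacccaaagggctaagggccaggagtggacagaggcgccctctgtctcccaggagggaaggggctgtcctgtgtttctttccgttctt
These letters hold no match to the 3 motifs, which occur in 2.87% (AP-1), 25.1% (GC box) and 5.69% (TATA box) of the same length of sequence before other starts.

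The remaining 4 genes were below the filter in both arrays, so no comparison was made. S100a8 was at 3.05 in WT and 2.97 in KO, and S100a9 was at 2.49 and 2.82. These are the calprotectin genes, whose RNA is abundant in neutrophils. S100a4, a marker of fibroblasts and of bone marrow derived macrophages, was at 3.09 and 3.13, and S100a6, the calcyclin gene, at 3.40 and 3.03. Of 12 neutrophil markers, 11 were also below the filter in both arrays, and the granulocyte colony-stimulating factor receptor gene Csf3r passed at 4.81 in WT and 4.98 in KO.

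Among 18 other measured S100 and annexin genes, 8 passed the filter, and Anxa3 was the 1 past 1.5-fold. Over all compared genes, 2.45% were lower and 1.47% were higher by 1.5-fold or more. Anxa3, a phospholipid-binding annexin on chromosome 5, was at 5.65 in the WT and 4.68 in the KO array. That is a difference of -0.97, or 1.96-fold lower, with the KO value at the filter itself, and its rank was 39 from the most negative. Of 3098 genes within 0.5 of its mean signal, 15 including Anxa3 were as low or lower and 110 were lower by 1.5-fold, beside the 21 of 2224 around S100a11. Anxa3 did not pass the filter at the 75th percentile and did not reach 2-fold, so it was not counted under either. Anxa1, the partner of S100A11 and a mediator that limits neutrophil entry into tissue, was at 5.07 in the WT and 4.82 in the KO array, a difference of -0.25. The bright annexins of membrane traffic hardly moved, with Anxa4 at 0.02, Anxa6 at -0.07 and Anxa7 at -0.02. Anxa13, an annexin of epithelia, was at -0.38 with its KO value of 4.45 below the filter. The 6 annexins that passed had a median of -0.16, and 5 were below 0, as were 6176 of the 11090 compared genes. That median was -0.02 without a filter or with the filter at the 75th percentile and -0.09 with probe sets of several symbols added, and Anxa7 turned to 0.0011 after centring on the median difference. Anxa8, Anxa9 and Anxa10 were below the filter in both arrays, with differences of 0.47, 0.32 and 0.08.

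Of 9 other S100 genes, 2 passed and none of these reached 1.5-fold. S100a16 was at 4.71 in the WT and 5.02 in the KO array, a difference of 0.31, and S100a14 at 4.32 and 4.71, a difference of 0.39 with the WT value below the filter. The other 7 were below it in both arrays. Among them S100a3 had the widest difference, 0.71 between 3.30 and 4.00, and S100a5 (-0.36), S100a7a (-0.15), S100a7l2 (0.24), S100b (-0.18), S100g (0.14) and S100z (0.35) went both ways.

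**Figure D3:**
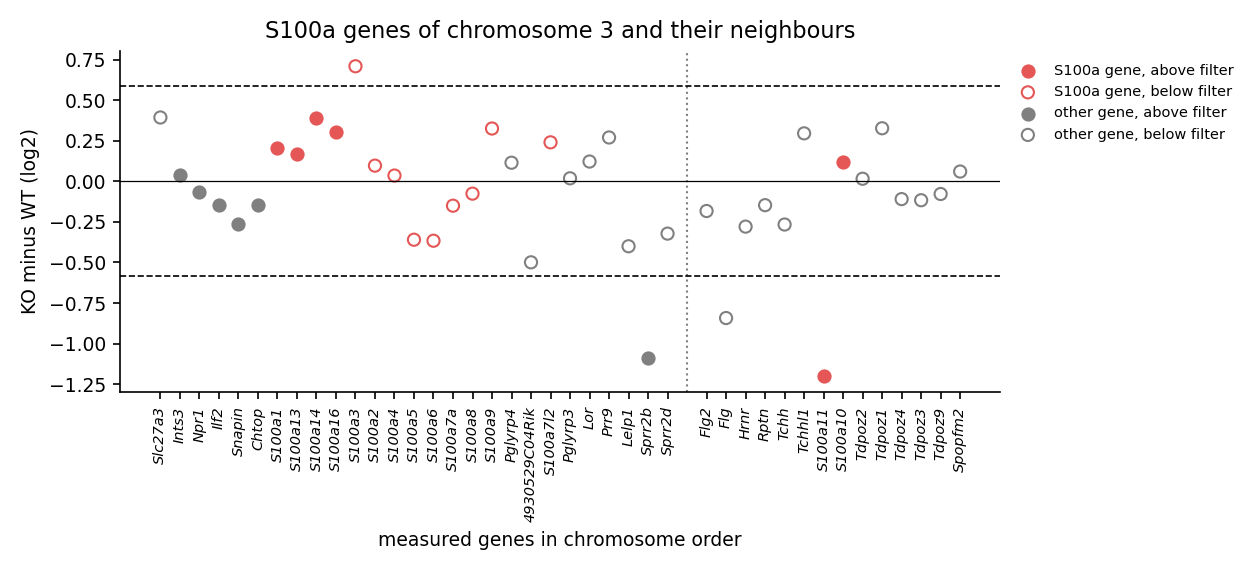
KO minus WT difference (log2, vertical axis) of S100a genes (red) and up to 6 measured genes around them (grey), in the order of the RefSeq annotation of GRCm38.p6 along chromosome 3. The dotted line marks omitted genes, open circles are below the intensity filter in both arrays and dashed lines are 1.5-fold. S100a11 at -1.20 lies beside S100a10 at 0.12.

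The measured neighbour of S100a11 above the filter did not share its difference. In the RefSeq order of GRCm38.p6, the next measured gene after S100a11 is S100a10, at 0.12, and the one before it is Tchhl1, which was below the filter in both arrays. The other 13 measured S100a genes of chromosome 3 lie in an earlier block that is 47 measured genes away. In that block the 4 genes above the filter, S100a1, S100a13, S100a14 and S100a16, follow each other and were all above 0, with a median of 0.25. S100a14 did so from a WT value below the filter.

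Genes that work with S100 and annexin proteins were near or slightly below their WT values. Of 10 receptor and signalling genes of S100A8 and S100A9, 7 passed the filter, 5 were below 0 and none reached 1.5-fold, with a median of -0.15. Cd14, the endotoxin co-receptor, was at 4.98 in WT and 4.39 in KO (-0.58, at least 1.23-fold lower), Il1b, an inflammatory cytokine gene, at -0.38, Ly96, the partner of the receptor TLR4, at -0.32 and Ager, the receptor for advanced glycation end products, at 0.23. The KO values of Cd14 and Il1b were below the filter. Cd14 lay at the edge of the threshold and passed it after removal of a loess trend (-0.60) and after repeated quantile normalization (-0.59). In the list of annexin A2 partners and the plasmin system, 9 of 12 genes had a single-symbol probe set and 8 passed. The 1 past 1.5-fold was Plau, the gene of urokinase, which activates plasminogen. Its WT value was 4.92 and its KO value 4.31, a difference of -0.61 and at least 1.18-fold lower against the filter. After centring on the median difference Plau was at -0.58 and no longer counted, nor was it with the filter at the 75th percentile or at 2-fold. The plasminogen gene Plg, which is made in hepatocytes, was at -0.16, the membrane repair gene Dysf at -0.33 and the chromatin remodeller gene Hltf at -0.19, and the list median was -0.14.

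Of 11 partners of other S100 and annexin proteins, 0 reached 1.5-fold and the median was -0.05. The widest differences were -0.41 for Sugt1, a co-chaperone bound by S100A6, -0.37 for Syt1, -0.28 for Il1a, a cytokine released with S100A13, and -0.18 for Mdm2, the ubiquitin ligase of p53. Of 15 other calcium-binding protein genes, again 0 reached 1.5-fold, and the median was -0.06. Chp1, an EF-hand protein, was at 0.49 with its WT value below the filter, but at -0.04 once probe sets of several symbols were added. Rcn1 and Rcn2, EF-hand proteins of the secretory pathway, were at -0.43 and -0.32, and Sparc, a matrix protein, at -0.23. The counts in these lists can be set beside the 2.45% of all compared genes that were lower and the 1.47% that were higher.

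**Figure D4:**
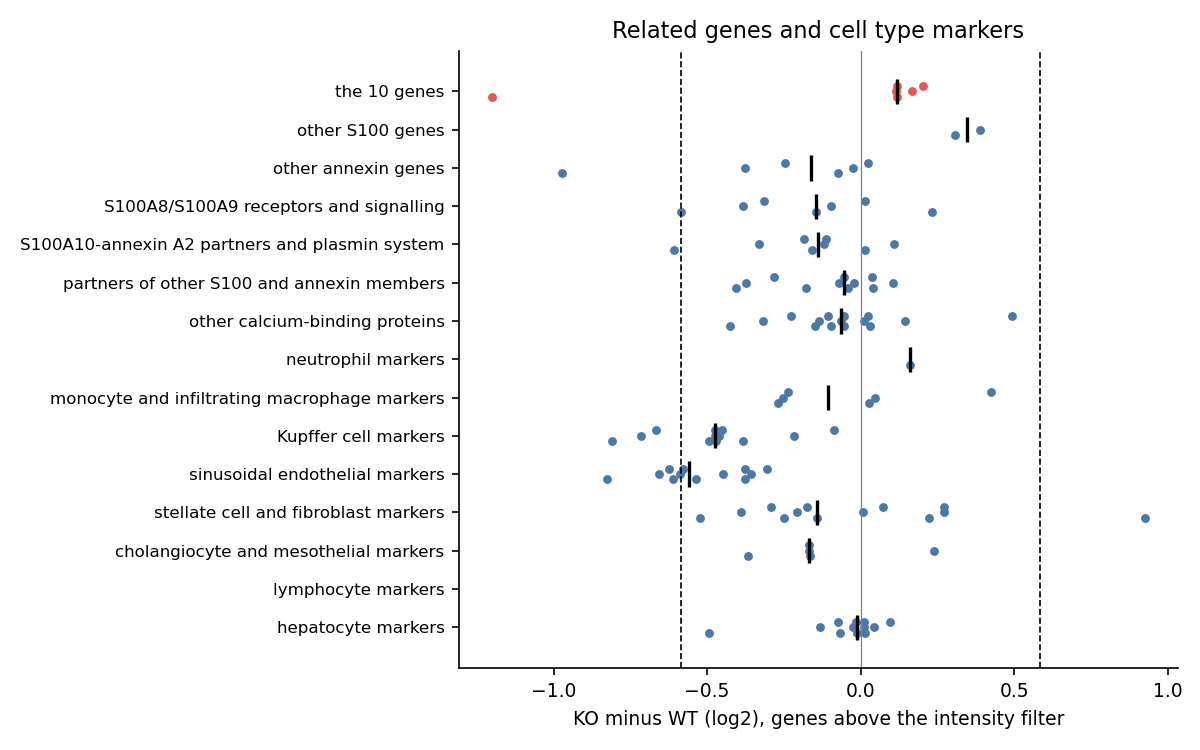
KO minus WT difference (log2, horizontal axis) of the genes above the intensity filter in each list (points), with the list median as a vertical bar and 1.5-fold as dashed lines. No lymphocyte marker passed the filter. Kupffer cell and sinusoidal endothelial markers all lie to the left of 0, and S100a11 at -1.20 lies to the left of every marker plotted.

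Markers of 2 resident cell types of liver were lower in the same array as S100a11 and Anxa3. All 12 Kupffer cell markers were below 0, with a median of -0.47 and a mean signal of 7.31 in WT and 6.83 in KO, and 3 were past 1.5-fold. These were C1qb (-0.81), a complement gene, Vsig4 (-0.71), a complement receptor gene, and Adgre1 (-0.67), the gene of F4/80, and Cd163, the haemoglobin scavenger receptor gene, followed at -0.49. All 12 sinusoidal endothelial markers were below 0 as well, with a median of -0.56 and a mean of 7.95 in WT and 7.42 in KO. Past 1.5-fold were 5 of them. That count was 4 after removal of a loess trend, repeated quantile normalization or centring, and with the filter at the 75th percentile. Lyve1, which encodes a receptor for hyaluronan, was at -0.83, Tek at -0.66, Oit3 at -0.62 and the cadherin gene Cdh5 at -0.61. Over all compared genes, 6176 of 11090 were below 0 and 2.45% were lower by 1.5-fold or more. The S100a11 difference of -1.20 was beyond the lowest value in either list. In a bulk sample, fewer cells of a type and less RNA per cell cannot be told apart, and the part of these cells in the S100a11 and Anxa3 differences was not tested.

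Median differences were smaller in the lists of other cell types with genes above the filter, though not every gene in them differed less. Of 13 stellate cell and fibroblast markers above the filter, 7 were below 0, with a median of -0.14. Of these 13, 1 was higher by 1.5-fold or more, against 1.47% of all compared genes. This was Des, the desmin gene, at 0.93 with a WT value of 3.75 below the filter and a KO value of 4.68 at the filter. It was not counted with the filter at the 75th percentile, with the brightest probe set, at 2-fold, or with probe sets of several symbols added, where its difference was 0.62. Lrat, which stores retinol, was at -0.52, Ngfr at -0.39 and Pdgfrb at -0.29. The 6 monocyte and infiltrating macrophage markers that passed had a median of -0.10, from Plac8 at -0.27, Lyz2 at -0.25 and Cx3cr1 at -0.24 up to Lgals3, the galectin-3 gene, at 0.42. The 5 cholangiocyte and mesothelial markers had a median of -0.17, with Upk3b at -0.37, the keratin genes Krt8 at -0.17 and Krt18 at 0.24, and Sox9 at -0.17. Krt18 was at -0.02 by its brightest probe set, and the list median was -0.07 without a filter and 0.04 with the filter at the 75th percentile. None of 11 measured lymphocyte markers passed the filter, and the highest of their values was 4.45. The 12 hepatocyte markers had a median of -0.01, with Serpina1e at -0.49, the urea cycle gene Cps1 at -0.13, Apob at 0.10 and Hnf4a at -0.07.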

How the data were processed

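Liver RNA was labelled from 100 ng of total RNA with the WT PLUS kit, per the labels' protocols. The authors deposited 1 log2 value per probe set and array, made with RMA in Affymetrix Expression Console 1.3.0, per the submitters' processing notes. The sources used here do not name the genome build of the array, and no probe-level intensities were used. Of 41345 probe sets, 23521 had 1 gene symbol, 1814 several and 16010 none. A gene's value is the mean of its single-symbol probe sets (Python 3.11.15, pandas 2.3.3, statsmodels 0.14.6). The symbols of all 10 genes matched RefSeq. With 1 array per genotype no test was made, and the number of arrays limits the precision. The steps were tested on simulated data.

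The genes and the 14 lists were chosen with earlier results of these data known. Named are the 10 genes, Iah1, every other listed S100 and annexin gene, and up to 4 members with the widest difference from each other list. S100a11-ps was added after its values were seen. Of 171 listed genes, 158 had a single-symbol probe set, and the rest are not analysed here. Alternatives were a higher (2-fold) and a lower fold threshold, the filter left out or raised to the 75th percentile, removal of a loess trend (span 0.4), a repeated quantile normalization, centring on the median difference, use of a gene's brightest probe set alone, and added probe sets with several symbols.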

Additional observations from a re-analysis of the deposited data

Results flagged for a closer look

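The probe set named for S100a11-ps, the annotated pseudogene of S100a11, lies outside the 10 genes and the lists and was higher in the KO array than in the WT control array, by 0.80 on the log2 scale, where S100a11 differed by -1.20. Another probe set, which the annotation pairs with S100a11-ps and Hif1a together, was at 3.73 in WT and 3.89 in KO.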

How the results depend on the processing

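The count of 1 lower and 0 higher among the 10 genes held under all 9 alternatives, and S100a11 stayed between -1.20 and -1.17 under the 5 that rescale or re-summarise the values. Use of the brightest probe set and added probe sets could not change these values, since each of the 10 genes had a single probe set. The median over the 10 genes lay between 0.12 and 0.14. It takes all 10 genes, so the filter settings could not change it either. Differences of the 6 compared genes kept their sign, and S100a4, below the filter, ranged from -0.03 to 0.06. Over all listed genes, 1 was higher and 10 were lower. These counts became 0 and 0 at 2-fold and 4 and 34 at the lower fold threshold. The higher count was 2 without a filter, and 0 with the filter at the 75th percentile, with the brightest probe set and with added probe sets of several symbols. The lower count was 11 without a filter, 8 after centring and 7 with the filter at the 75th percentile. Over all compared genes, 163 higher and 272 lower became 15 and 34 at 2-fold, 734 and 1151 at the lower threshold, 572 and 576 without a filter, and 18 and 61 at the 75th percentile. The fold thresholds moved the cutoff over the same 11090 genes, and the filter settings changed which genes were compared. Both change such counts by construction. With the brightest probe set and with the added probe sets, the listed gene lost was Des. Its difference stayed past 1.5-fold (0.93 and 0.62), and it fell below the filter. With probe sets of several symbols added, S100a11-ps was at 0.48 in place of 0.80, short of 1.5-fold. Medians of the monocyte list (-0.03 without a filter, -0.25 at the 75th percentile, -0.24 with the brightest probe set) changed by less than the SD between probe sets. So did those of the hepatocyte list (-0.03 after loess, 0.01 after centring). The stellate cell median was -0.07 without a filter. The median of partners of other S100 and annexin proteins was -0.02 to -0.03 after the 3 rescalings, and that of other calcium-binding proteins -0.04 after centring. No paired analysis was possible because each genotype has 1 array. Leaving out a replicate was not possible for the same reason.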

Other observations

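Between the S100a blocks of chromosome 3 lie genes of the epidermal differentiation complex, which are not liver genes. Those omitted from the plot were not summarised, and those plotted were mostly below the filter. Sprr2b, a small proline-rich protein gene of epithelia, was the 1 plotted gene there above it. Its signal was 5.15 in the WT and 4.06 in the KO array, a difference of -1.09 with the KO value below the filter. S100pbp, the gene of an S100P-binding protein, was at 5.88 in WT and 5.96 in KO, and S100a2 was at 4.07 and 4.17, below the filter in both arrays. These genes were looked at after their values had been seen.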
